A study of Mus musculus with 36 samples.

Results

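The 9 genes described here carry or restrain the transforming growth factor β (TGF-β) signal: the ligands Tgfb1, Tgfb2 and Tgfb3, the receptors Tgfbr1 and Tgfbr2, the receptor-regulated Smads Smad2 and Smad3, the inhibitory Smad7, and Skil, which encodes the SnoN co-repressor. They were chosen by symbol from the 27562 genes of the deposited expression table, and each was found once. Levels are given in all 36 libraries as FPKM, the fragments that fell on a gene scaled to its length and to the size of the library, so that genes can be compared per length.

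The ligands are made as latent dimers that must be released before they bind the type II receptor Tgfbr2, which then phosphorylates the type I receptor Tgfbr1. Tgfbr1 phosphorylates Smad2 and Smad3, which enter the nucleus with Smad4. Smad7 and SnoN are induced by the pathway and damp it, Smad7 at the receptor and SnoN at the Smad complex. Alveolar macrophages (AΦ), the resident phagocytes of the airspace, depend on TGF-β for their development and upkeep, and monocytes are the blood cells from which new lung macrophages can form.

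The libraries came from chimeric mice. Male C57BL/6J recipients, whose cells carry CD45.2, were irradiated with the chest shielded, were given busulfan, and received bone marrow from CD45.1 mice of strain B6.SJL-Ptprc a Pepc b/BoyJ. They then breathed filtered air (FA) or concentrated fine particulate matter (PM2.5) for 4 or 32 weeks. AΦ (CD64+ CD11c hi CD11b lo) and monocytes (Ly6G- MHC II- CD64 lo CD11b hi) were sorted from the lung, so all 12 groups of 3 libraries share the irradiation, the busulfan and the transplant. AΦ of CD45.2 origin are called tissue-resident (TR-AΦ) and those of CD45.1 origin bone marrow-derived (BM-AΦ). At 4 weeks the sorted AΦ and monocytes were of CD45.2 origin, and at 32 weeks there were AΦ and monocytes of both origins. The labels number the 32-weeks populations 1 and 2. The study's supplement reads them as CD45.1 and CD45.2 for AΦ, and the same key was carried over to the monocytes. Neither the shielding nor the surface marker traces a single cell's history, so CD45.2 cells can include descendants of recipient marrow that survived.

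By their sums, the sorted populations carried the markers of their names. The summed FPKM of 12 AΦ markers was 6725 to 14125 in the 18 AΦ libraries and 281 to 1621 in the 18 monocyte libraries, whereas 9 monocyte markers summed to 86.4 to 533 and to 1284 to 4321. Chil3 and Ear2, with medians of 4919 and 1866 FPKM in AΦ, weigh most in the AΦ sum. Of the AΦ markers, Fcgr1 had the higher median in monocytes, at 25.3 FPKM against 18.6 FPKM in AΦ. Within the TR-AΦ of 4 weeks, replicate 2 of both exposures stood apart with monocyte marker sums of 489 (FA) and 533 (PM2.5) and with Ccr2 at 31.6 and 34.3 FPKM, against 3.67 to 6.44 FPKM in the other 4. Replicate 2 also held the highest Ptprc (CD45) in 12 of 12 groups and the highest AΦ marker sum in 11 of 12. No absolute read depth can be read from FPKM, but the step between low values put the relative depth of the libraries between 0.631 and 1.87 times their geometric mean. The RNA was pooled from many sorted cells, so fewer cells of a type and less RNA per cell cannot be told apart.

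In the AΦ, transcripts of the ligand Tgfb1 and of both receptors were abundant while those of Smad3 were scarce. Over the 18 AΦ libraries the median FPKM ran from Tgfb1 (159) through Tgfbr2 (131), Tgfbr1 (125) and Skil (78.5) to Smad2 (11.0), Smad7 (4.90), Tgfb2 (2.74), Smad3 (0.315) and Tgfb3 (0.118). The steps from Skil to Smad2 and from Smad2 to Smad7 were clear of overlap between libraries, and all other neighbours in this order overlapped. In the TR-AΦ of 4 weeks Skil stood second, with a median of 132 FPKM between Tgfb1 at 139 and Tgfbr1 at 111.

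In the monocytes the order changed. Tgfb1 (243 FPKM) was followed by Skil (123), Tgfbr2 (58.5), Tgfbr1 (56.5), Smad3 (25.6), Smad7 (16.5), Smad2 (12.9), Tgfb3 (1.87) and Tgfb2 (0.143), and the libraries of every pair of neighbours overlapped. Smad3, the eighth gene in AΦ, was the fifth in monocytes, above Smad2. Tgfb2 did not pass 4.80 FPKM in any library, and Tgfb3 did not pass 1.73 FPKM in AΦ but reached 18.6 FPKM in CD45.2 monocytes of 32 weeks. Tgfb2 was listed at 0 in 6 of 18 monocyte libraries, and Tgfb3 in 3 of 18 AΦ and 3 of 18 monocyte libraries.

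**Figure D1:**
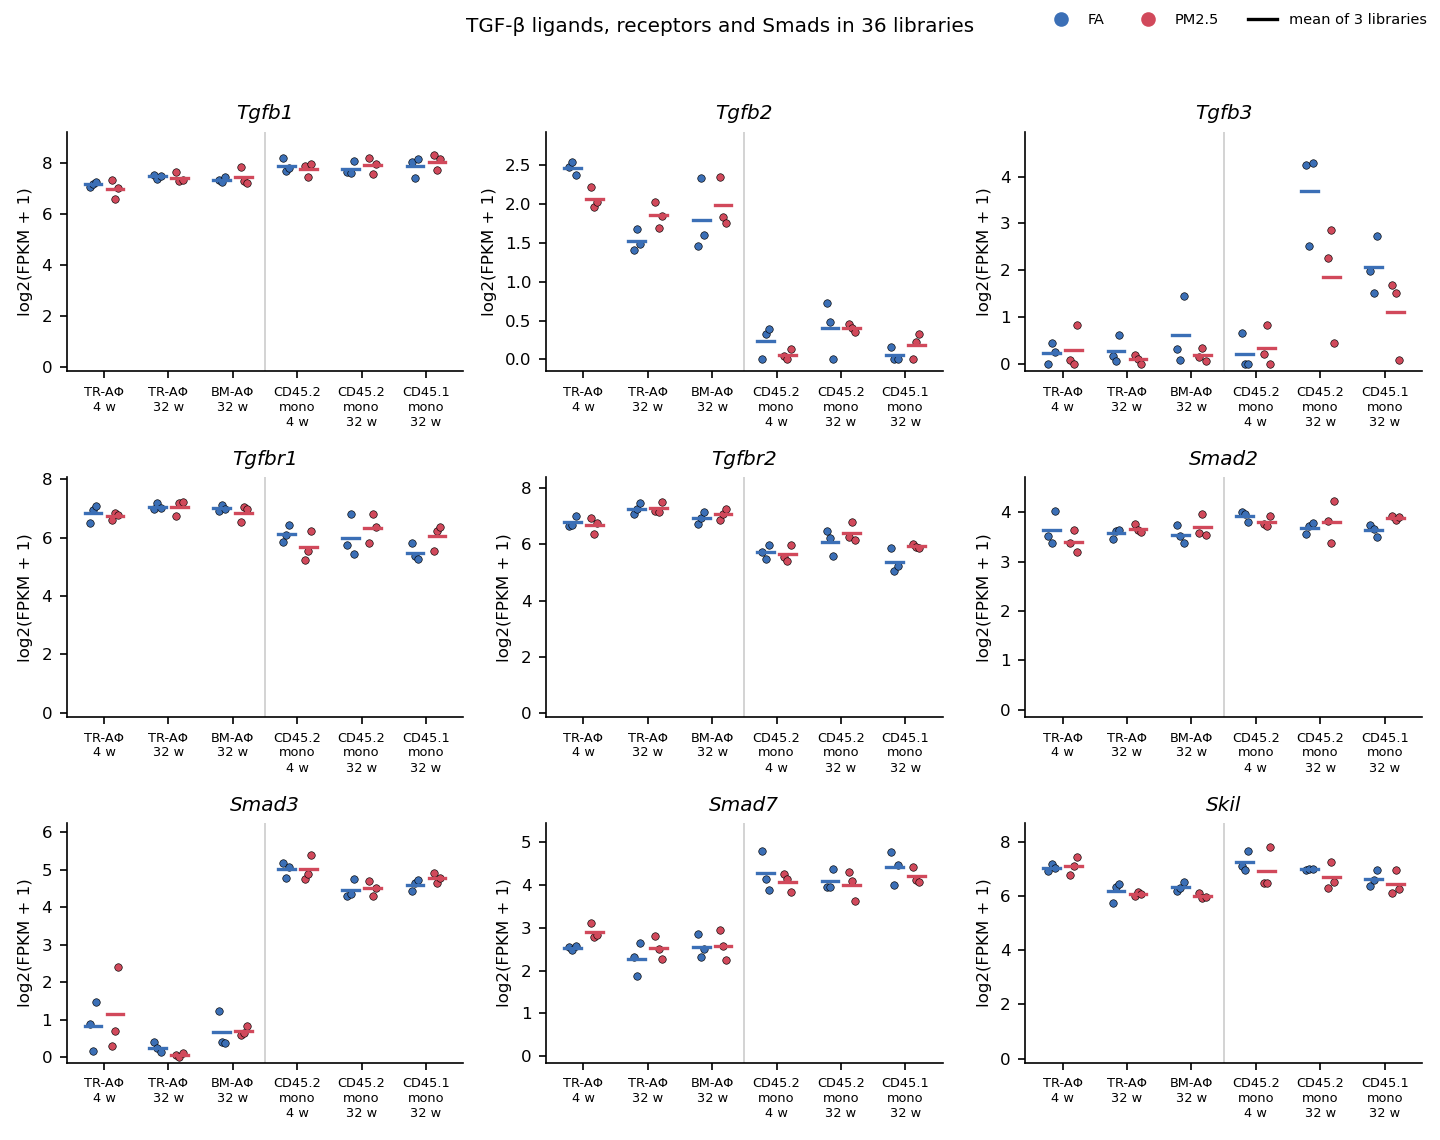
Level of each of the 9 genes as log2(FPKM + 1) in 36 libraries, with 1 panel per gene, the AΦ groups left and the monocyte groups right of the grey line, FA in blue and PM2.5 in red, points for libraries and bars for the mean of 3. Smad3 and Smad7 stand higher in monocytes and Tgfb2, Tgfbr1 and Tgfbr2 in AΦ, while FA and PM2.5 bars lie close to each other in most panels.

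Promoter windows from RefSeq (GRCm38.p6, 250 bases before to 50 after the start) were found for 5 of the 9 genes, as 6 windows. Those of Tgfb2, Tgfbr2 and Smad3 are shown because the levels of these genes in AΦ and in monocytes did not overlap in any comparison below. Each is written 5′ to 3′ on the gene's strand, and capitals mark CAGAC, the core of the Smad binding element.
Tgfb2, chr1:186705940-186706239, minus strand: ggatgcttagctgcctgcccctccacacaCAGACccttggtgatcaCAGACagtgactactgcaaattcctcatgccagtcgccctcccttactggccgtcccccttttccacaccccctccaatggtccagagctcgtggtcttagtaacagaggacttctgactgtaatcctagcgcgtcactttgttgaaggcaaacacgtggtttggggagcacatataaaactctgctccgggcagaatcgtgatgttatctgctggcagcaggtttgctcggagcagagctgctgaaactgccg
Tgfbr2, chr9:116175314-116175613, minus strand: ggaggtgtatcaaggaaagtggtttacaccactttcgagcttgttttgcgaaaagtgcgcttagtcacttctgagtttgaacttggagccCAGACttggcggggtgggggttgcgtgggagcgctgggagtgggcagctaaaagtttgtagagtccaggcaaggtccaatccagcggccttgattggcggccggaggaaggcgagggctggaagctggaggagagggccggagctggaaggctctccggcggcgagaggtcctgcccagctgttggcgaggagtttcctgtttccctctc
Smad3, chr9:63757945-63758244, minus strand: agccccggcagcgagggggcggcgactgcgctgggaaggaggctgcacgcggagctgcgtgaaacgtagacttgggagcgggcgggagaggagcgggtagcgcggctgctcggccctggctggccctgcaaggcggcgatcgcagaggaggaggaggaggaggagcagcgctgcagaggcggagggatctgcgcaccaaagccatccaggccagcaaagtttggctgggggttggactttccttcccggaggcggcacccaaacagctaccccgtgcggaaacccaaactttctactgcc

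The motifs searched on both strands were CAGAC, read as GTCTG on the other strand, the Smad palindrome GTCTAGAC, and the AP-1 site in both of its spellings, TGAGTCA or else TGACTCA. The last 2 letters of an AP-1 site can be the first of a CAGAC. The Tgfb2 window held CAGAC at positions -221 and -204 from the start, the Tgfbr2 window held it at -160, and the Smad3 window and that of Tgfb1 at chr7:25686752-25687051 held no match. Of the 2 Tgfbr1 windows, that at chr4:47352972-47353271 held none and that at chr4:47385966-47386265 held CAGAC at -203. Among all 32851 windows of the same length, 49.6% held CAGAC on either strand, 0.213% the palindrome and 5.20% the AP-1 site, and the last pair were in none of the 6 windows. The GC content of the printed windows was 54.3% for Tgfb2, 59% for Tgfbr2 and 67.7% for Smad3.

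The genes lie on 7 chromosomes of the mm10 build, at chr7:25687002-25705077 (Tgfb1, plus strand), chr1:186622792-186707033 (Tgfb2, minus), chr12:86056744-86079041 (Tgfb3, minus), chr4:47353222-47414931 (Tgfbr1, plus), chr9:116087698-116175363 (Tgfbr2, minus), chr18:76241580-76305731 (Smad2, plus), chr9:63646767-63757994 (Smad3, minus), chr18:75367529-75395935 (Smad7, plus) and chr3:31095058-31122577 (Skil, plus). Tgfb3 overlaps the protein-coding Ttll5 on the other strand. The library kit keeps the strand, but the strand setting of the counting is not given in the sources used here, so reads of this pair may not have been told apart. Ttll5 was at 3.51 to 11.7 FPKM in AΦ and 0.777 to 2.99 FPKM in monocytes. The part of Ttll5 reads in the Tgfb3 levels was not tested. Tgfb2 overlaps the small nucleolar RNA Gm26169 and the antisense Gm29491, which were not used here.

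AΦ and monocytes of the same origin and time were compared over both exposures, 6 libraries against 6 taken as unpaired, by limma on log2(FPKM + 1). On this scale a fold change understates the change of low genes, and a gene was called at a Benjamini-Hochberg adjusted p under 0.05 over all genes tested. AΦ held more transcript of both receptors and of Tgfb2, and less of Smad3, Smad7 and Tgfb1, at both times and in both origins. Of the 9 genes, 3 were higher and 4 lower in CD45.2 cells at 4 weeks, 3 higher and 4 lower in CD45.1 cells at 32 weeks, and 3 higher and 5 lower in CD45.2 cells at 32 weeks. Of all 13307 genes, 48.2% were called in CD45.2 cells at 4 weeks (22.6% higher and 25.5% lower in AΦ), 50.9% in CD45.1 cells at 32 weeks (27.1% and 23.8%) and 47.3% in CD45.2 cells at 32 weeks (23.6% and 23.7%), so a call is common between these cells and the values below carry more than the counts.

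**Figure D2:**
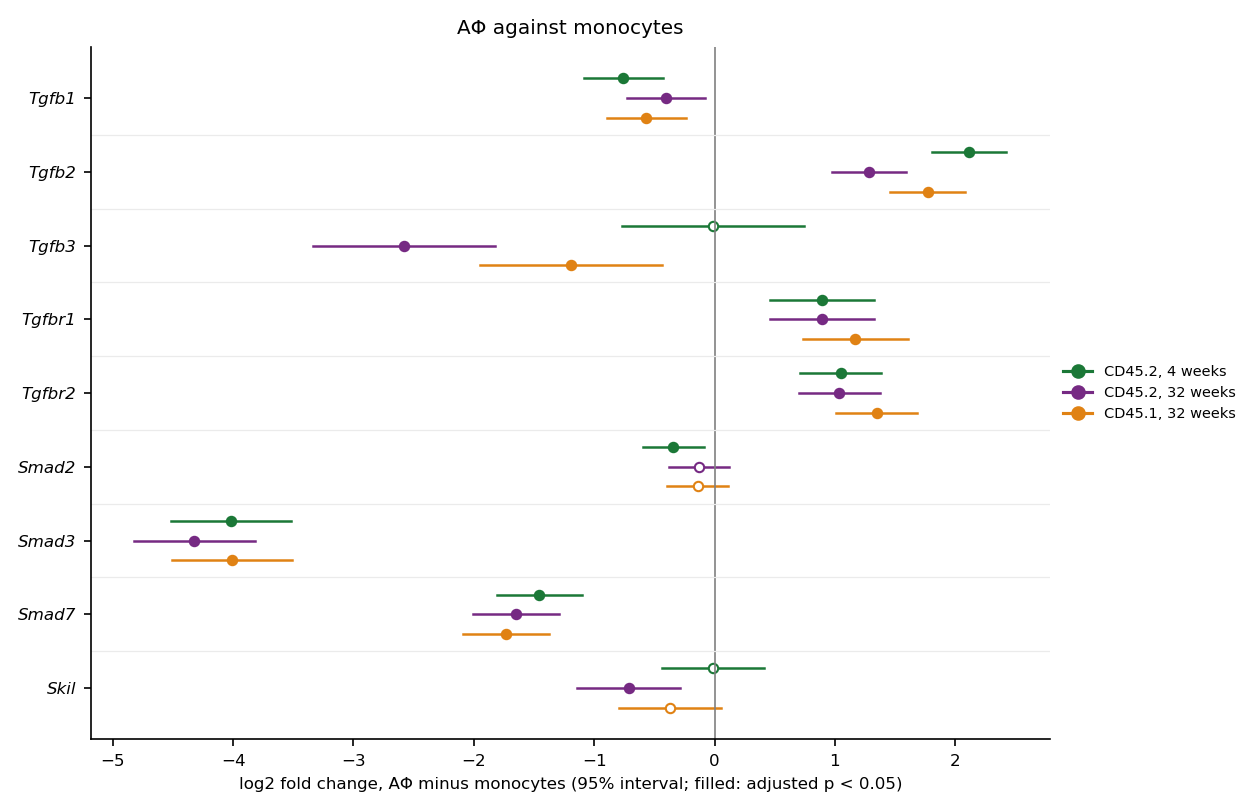
Log2 fold change of AΦ against monocytes on the log2(FPKM + 1) scale for the 9 genes, with 95% intervals, for CD45.2 cells at 4 weeks (green) and 32 weeks (purple) and CD45.1 cells at 32 weeks (orange), 6 libraries against 6; filled points passed an adjusted p of 0.05. Smad3 lies near -4 in all 3 comparisons, and Tgfb3 lies at 0 in the first and below 0 in the other two.

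Among the ligands, Tgfb1 had the highest median of the 9 genes in both cell types and was lower in AΦ. At 4 weeks it ran from 96.6 to 162 FPKM in TR-AΦ (median 139) and from 175 to 294 FPKM in CD45.2 monocytes (median 231), with no overlap between the cells. AΦ differed by a log2 fold change of -0.76 (SE 0.159, adjusted p = 0.000255), and at 32 weeks by -0.57 (adjusted p = 0.00416) in CD45.1 and -0.40 (adjusted p = 0.039) in CD45.2 cells, where the libraries overlapped. Quantile normalization of the libraries left the direction and ended the call in CD45.2 cells at both times, at -0.33 and -0.30. At 32 weeks in CD45.2 cells the call was also lost on leaving out any of 7 of 12 libraries (adjusted p of 0.0569 to 0.114), namely replicates 1 and 2 of either TR-AΦ group, FA replicate 2 or PM2.5 replicates 0 and 2 of the monocytes.

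Tgfb2 was the ligand that AΦ held and monocytes nearly lacked. The TR-AΦ of 4 weeks had 2.89 to 4.80 FPKM (median 3.92), TR-AΦ of 32 weeks 1.66 to 3.08 (median 2.22) and BM-AΦ 1.75 to 4.10 (median 2.47). No monocyte library reached 1 FPKM, the highest being 0.657. AΦ exceeded monocytes by a log2 fold change of 2.12 (SE 0.15, adjusted p = 4.25e-12) at 4 weeks, 1.77 (adjusted p = 1.54e-10) in CD45.1 and 1.28 (adjusted p = 5.49e-08) in CD45.2 cells at 32 weeks, and in each of these the exact permutation test gave 0.00216, the smallest p that 924 splits allow.

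Tgfb3, the third ligand, was near 0 in AΦ throughout and differed between the cells at 32 weeks. In CD45.2 monocytes of 32 weeks it lay between 0.357 and 18.6 FPKM (median 5.54) and in CD45.1 monocytes between 0.0664 and 5.69 FPKM (median 2.05), against at most 0.539 FPKM in TR-AΦ and 1.73 FPKM in BM-AΦ of that time. Its log2 fold change in AΦ was -2.58 (adjusted p = 1.41e-06) and -1.19 (SE 0.368, adjusted p = 0.00845), with some overlap of libraries in both. At 4 weeks it was -0.01 (adjusted p = 1), with an interval of -0.77 to 0.74.

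Both receptors were higher in AΦ. Tgfbr1 lay between 89.2 and 150 FPKM in the AΦ (median 125) and between 37.1 and 111 FPKM in the monocytes (median 56.5). The fold change on the log2 scale came to 0.89 at 4 weeks (SE 0.211, adjusted p = 0.000881), 1.17 (adjusted p = 3.83e-05) in CD45.1 and 0.89 (adjusted p = 0.000903) in CD45.2 cells at 32 weeks. The libraries overlapped only in the last of these comparisons.

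Tgfbr2, the receptor that binds the ligand first, showed the like difference without overlap in any of the 3 comparisons. Its levels were 81.5 to 128 FPKM in TR-AΦ of 4 weeks, 134 to 181 FPKM in TR-AΦ of 32 weeks and 105 to 151 FPKM in BM-AΦ. The monocytes held 32.6 to 110 FPKM (median 58.5). The log2 fold change was 1.05 (SE 0.164, adjusted p = 5.3e-06) at 4 weeks, 1.35 (adjusted p = 1.02e-07) in CD45.1 and 1.04 (adjusted p = 6.78e-06) in CD45.2 cells at 32 weeks.

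The 2 receptor-regulated Smads parted. Smad2 was at similar levels in the cells, 8.22 to 15.3 FPKM in AΦ (median 11.0) and 9.37 to 17.8 FPKM in monocytes (median 12.9). It was lower in AΦ at 4 weeks, by a log2 fold change of -0.34 (SE 0.122, adjusted p = 0.022) with overlapping libraries, and at 32 weeks its intervals were -0.39 to 0.11 in CD45.1 and -0.38 to 0.12 in CD45.2 cells. The call at 4 weeks was lost when only the groups compared were fitted (adjusted p = 0.0515), and after quantile normalization the log2 fold change was -0.24 (adjusted p = 0.142). It was also lost without FA replicate 0 or 1 or PM2.5 replicate 2 of the TR-AΦ, or PM2.5 replicate 2 of the monocytes (adjusted p of 0.0532 to 0.0769).

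Smad3 had the largest difference of the 9 genes on the log2(FPKM + 1) scale in all 3 comparisons. By the log2 ratio of the mean FPKM, Tgfb2 stood farther from 0 at 4 weeks, at 5.06 against -4.59. The 18 monocyte libraries lay between 18.5 and 41.2 FPKM (median 25.6). In the AΦ of FA exposed mice the libraries of replicates 0, 1 and 2 held 0.836, 0.125 and 1.75 FPKM (TR-AΦ, 4 weeks), 0.319, 0.172 and 0.0949 FPKM (TR-AΦ, 32 weeks) and 1.36, 0.310 and 0.306 FPKM (BM-AΦ). In those of PM2.5 exposed mice they held 0.237, 0.614 and 4.32 FPKM, 0.0455, 0 and 0.0793 FPKM, and 0.505, 0.569 and 0.778 FPKM. No AΦ library came near a monocyte library. The log2 fold change was -4.02 (SE 0.243, adjusted p = 1.71e-13) at 4 weeks, -4.01 (adjusted p = 2e-13) in CD45.1 and -4.32 (adjusted p = 6.03e-14) in CD45.2 cells at 32 weeks, and the exact permutation p was 0.00216 in each.

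The highest Smad3 levels of the AΦ, 4.32 and 1.75 FPKM, were in replicate 2 of the 4-weeks TR-AΦ, the libraries with the highest monocyte marker sums. Without the replicates 2 of 4 weeks the log2 fold change was -4.38 (adjusted p = 2.06e-14). The part that monocyte RNA had in the remaining AΦ levels was not tested.

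**Figure D3:**
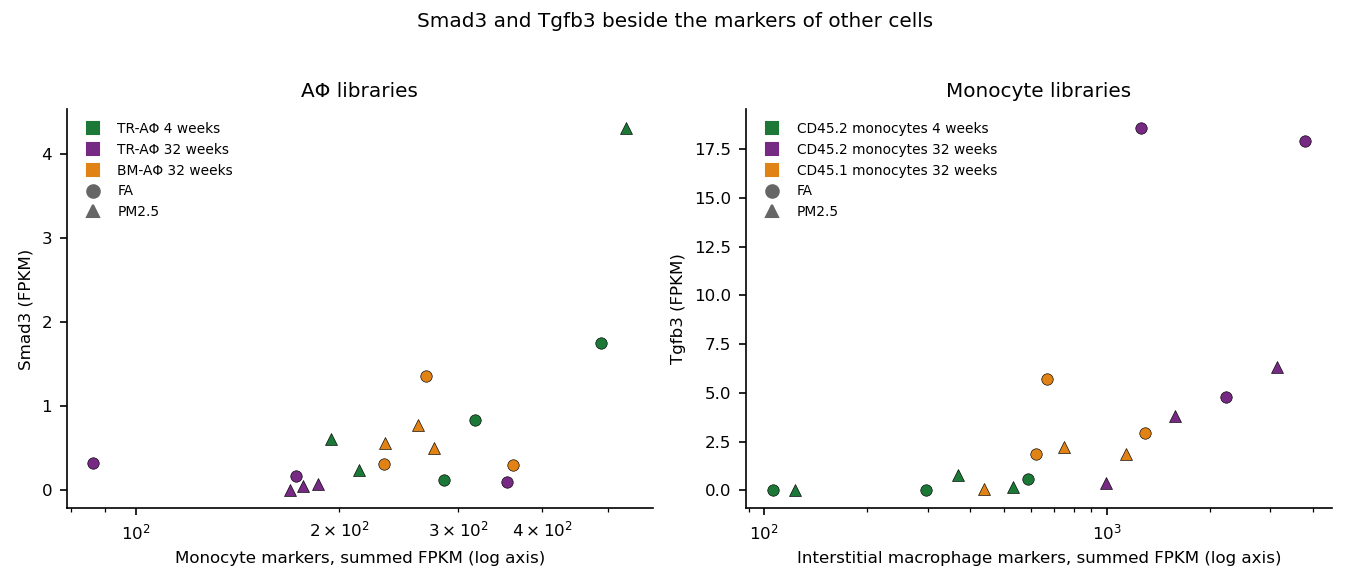
Left, FPKM of Smad3 in the 18 AΦ libraries against the summed FPKM of 9 monocyte markers, and right, FPKM of Tgfb3 in the 18 monocyte libraries against the summed FPKM of 6 interstitial macrophage markers (log x axes), with colours for population and time, circles for FA and triangles for PM2.5. The 2 AΦ libraries with the highest monocyte marker sums, 489 and 533, have the highest Smad3, and the Tgfb3 levels above 10 FPKM are in 2 libraries of CD45.2 monocytes at 32 weeks with marker sums of 1262 and 3801.

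Of the 2 inhibitors, Smad7, which blocks and degrades the activated receptor, was lower in AΦ. It lay between 2.66 and 7.72 FPKM in AΦ (median 4.90) and between 11.3 and 26.9 FPKM in monocytes (median 16.5), with no overlap. The log2 fold change was -1.45 (SE 0.173, adjusted p = 6.71e-08) at 4 weeks, -1.73 (adjusted p = 3.2e-09) in CD45.1 and -1.65 (adjusted p = 7.91e-09) in CD45.2 cells at 32 weeks. Skil was at 107 to 174 FPKM in TR-AΦ and at 88.6 to 220 FPKM in monocytes at 4 weeks, with a log2 fold change of -0.01 and an interval of -0.43 to 0.41. At 32 weeks it was lower in AΦ of CD45.2 origin (-0.71, SE 0.207, adjusted p = 0.00547), while the -0.37 in CD45.1 cells was not called (adjusted p = 0.137).

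Of 65 other genes of the pathway in 5 lists, 45 were expressed highly enough to be tested between the cells. Of these, 12 were higher and 19 lower in AΦ in CD45.2 cells at 4 weeks, 17 and 17 in CD45.1 cells at 32 weeks, and 12 and 19 in CD45.2 cells at 32 weeks, with medians of -0.20, 0.02 and -0.19 beside medians over all genes of -0.02, 0.03 and 0. Among 6 genes of latency and activation, 2, 1 and 1 were higher and 4 were lower each time. Thbs1, which encodes the TGF-β activating thrombospondin 1, had a median of 0.467 FPKM in TR-AΦ and 518 FPKM in monocytes at 4 weeks (log2 fold change -7.05), and its log2 fold change was -7.44 in CD45.1 and -8.26 in CD45.2 cells at 32 weeks.

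Among 10 known target genes, 3 were higher and 3 lower in AΦ at 4 weeks, and 6 higher and 3 lower in both comparisons at 32 weeks. Id3, an inhibitor of DNA binding that answers to TGF-β and bone morphogenetic proteins, was lower by -3.77 and -3.40 at 32 weeks. This list holds Pparg, which is also a marker of AΦ, so its count is not independent of the sort.

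The other lists held changes in both directions. Of 9 other receptors, 3, 3 and 1 were higher and 4, 3 and 4 lower in the 3 comparisons in the order above, and of 16 other Smads and regulators 3, 5 and 3 were higher and 8, 6 and 7 lower. Zfyve9, which encodes the anchor that presents Smad2 and Smad3 to the receptor, had a median of 3.15 FPKM in TR-AΦ and 75.6 FPKM in monocytes at 4 weeks (log2 fold change -4.05), and was lower by -3.43 in CD45.2 cells at 32 weeks. Among 4 other ligands and antagonists, 1, 2 and 1 were higher and 0, 1 and 1 lower, with Gdf15, a distant ligand of the family, at 4.01 (4 weeks) and 3.79 (CD45.1, 32 weeks).

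Between 4 and 32 weeks the TR-AΦ held less Skil and Tgfb2 and more Tgfbr2 over both exposures, 6 libraries against 6. Of 7 genes that passed the filter of 1 FPKM on the mean over AΦ libraries, 1 rose and 2 fell, where 5.91% of all 12665 genes were called (2.56% higher and 3.35% lower at 32 weeks). Smad3 and Tgfb3 did not pass that filter and are given by the exact test alone. Mice of the 2 times differ in age as well as in length of exposure, and these cannot be told apart.

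Of the 3 called genes, Skil had the largest log2 fold change over both exposures. In FA exposed mice its levels were 121, 142 and 128 FPKM at 4 weeks and 52.9, 78.7 and 85.1 FPKM at 32 weeks. In PM2.5 exposed mice they were 107, 135 and 174 FPKM and 63.3, 69.3 and 66.2 FPKM. Every library of 4 weeks stood above every library of 32 weeks. Over both exposures this came to a log2 fold change of -0.95 (SE 0.133, adjusted p = 0.000873), and to -0.87 (SE 0.188, adjusted p = 0.0492) within FA, where 0.782% of genes were called, and -1.03 (SE 0.188, adjusted p = 0.0178) within PM2.5, where 1.05% were called. Within FA the call was lost without any single library but replicate 2 of 32 weeks (adjusted p of 0.0695 to 0.198), and within PM2.5 without any but replicate 0 of 4 weeks (0.0525 to 0.0741), while over both exposures it stood without each of the 12.

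Immediate early genes, which are induced within minutes of a stimulus, moved beside Skil. Of 14, 4 were lower at 32 weeks and 0 higher, namely Egr1 (log2 fold change -2.76), Ier2 (-1.71), Zfp36 (-1.04) and Junb (-0.58), and the summed FPKM of all 14 was 4875 to 7167 at 4 weeks and 2881 to 5795 at 32 weeks. Marker sums of other cells were also lower at 32 weeks. The median sum of 6 interstitial macrophage markers went from 112 to 36.9 FPKM, of 6 platelet markers from 18.6 to 4.75 FPKM and of 9 monocyte markers from 302 to 175 FPKM, each with overlap between the times, while that of 12 AΦ markers went from 7700 to 10184 FPKM. Over all AΦ libraries the platelet sum was mostly Pf4, with a median of 14.2 FPKM against 15.5 FPKM for the sum. The other genes of that list reached at most 2.90 FPKM in AΦ, so the sum does not stand for platelet markers as a group. The part of the immediate early genes or of any marker list in the changes of Skil, Tgfbr2 and Tgfb2 was not tested.

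Tgfbr2 rose. At 4 weeks it was at 99.5, 103 and 128 FPKM (FA) and 122, 81.5 and 107 FPKM (PM2.5), and at 32 weeks at 134, 151 and 177 FPKM (FA) and 145, 143 and 181 FPKM (PM2.5). The times did not overlap. The log2 fold change was 0.54 (SE 0.128, adjusted p = 0.0252), with 0.48 within FA (adjusted p = 0.285) and 0.60 within PM2.5 (adjusted p = 0.131). The call was lost after quantile normalization (0.49, adjusted p = 0.074) and when only the groups compared were fitted (adjusted p = 0.0605), and on leaving out any of 5 libraries, namely replicates 0 and 1 (FA) or 1 (PM2.5) of 4 weeks or replicate 2 of either exposure of 32 weeks (adjusted p of 0.0581 to 0.0627).

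Tgfb2 fell by 0.58 on the log2 scale (SE 0.152, adjusted p = 0.0405). It was at 4.58, 4.80 and 4.19 FPKM (FA) and 3.64, 2.89 and 3.08 FPKM (PM2.5) at 4 weeks, and at 1.66, 2.19 and 1.79 FPKM and 3.08, 2.24 and 2.58 FPKM at 32 weeks. The FA libraries of the 2 times were far apart while those of PM2.5 overlapped. Its log2 fold change was -0.94 (adjusted p = 0.063) within FA and -0.21 (interval -0.67 to 0.25) within PM2.5, a difference of 0.73 that was not called (adjusted p = 1). The call over both exposures was lost on leaving out any of the 12 libraries but FA replicate 2 of 4 weeks (adjusted p of 0.0533 to 0.089), and with no filter (0.0684), with the replicate number as a block (0.0527), without replicate 2 of 4 weeks (0.068) and after quantile normalization (-0.50, adjusted p = 0.0827).

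The remaining genes were not called with time in TR-AΦ. Tgfb1 had a log2 fold change of 0.37 (interval 0.08 to 0.67, adjusted p = 0.118), Tgfbr1 0.27, Smad2 0.10 and Smad7 -0.32. Smad3, below 1 FPKM in all but 2 of these 12 libraries, differed by -0.83 in mean log2(FPKM + 1) with an exact permutation p of 0.0152 (two-sided), and its highest levels were those of replicate 2 of 4 weeks.

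**Figure D4:**
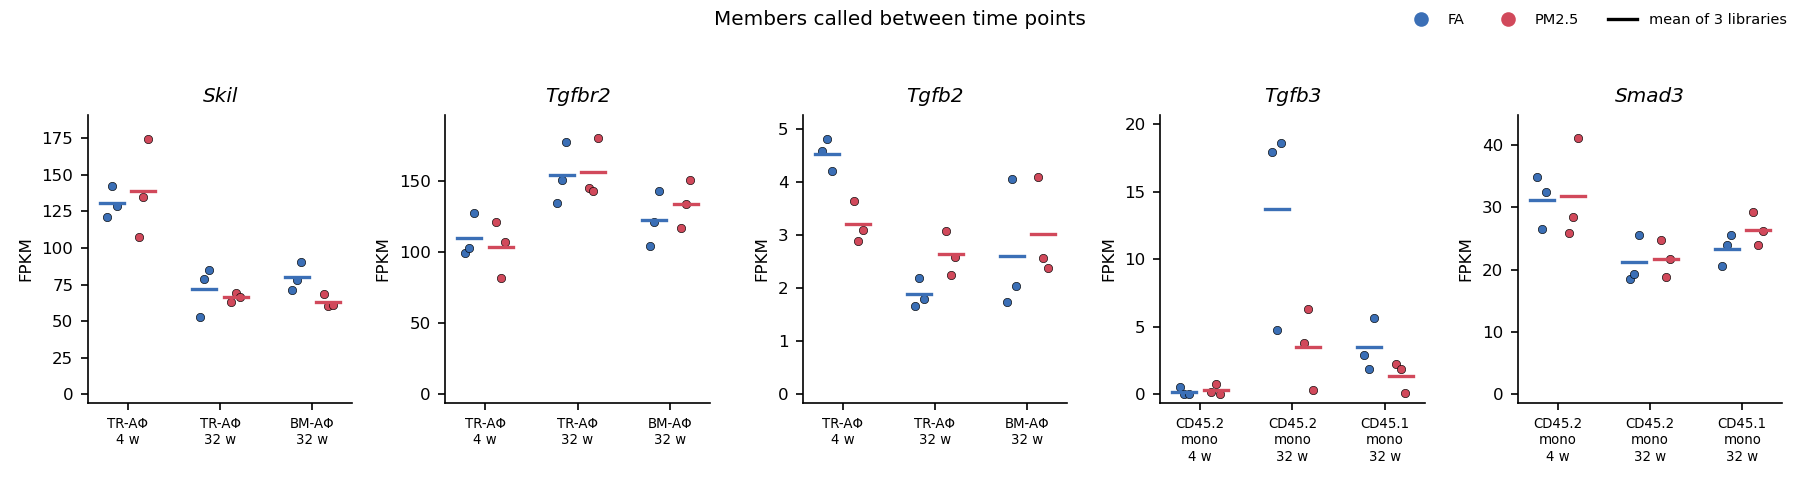
FPKM of the 5 genes called between 4 and 32 weeks, Skil, Tgfbr2 and Tgfb2 in the AΦ populations and Tgfb3 and Smad3 in the monocyte populations, with points for libraries, bars for the mean of 3, FA in blue and PM2.5 in red. Skil lies at 107 FPKM or above in TR-AΦ of 4 weeks and at 90.1 FPKM or below in TR-AΦ and BM-AΦ of 32 weeks, and Tgfb3 reaches 18.6 FPKM in CD45.2 monocytes of 32 weeks.

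Of 39 other pathway genes tested in TR-AΦ, 1 rose and 3 fell with time, with a median of 0.05 beside 0.03 over all genes. Id3 fell by 1.87 on the log2 scale, from a median of 8.06 FPKM to 1.86 FPKM, while Id1 rose by 1.08, from 8.96 to 20.8 FPKM. Tgif1, a repressor of Smad-driven transcription, fell by 1.09, and Cdkn1a, the cell cycle inhibitor p21, fell by 0.58.

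In CD45.2 monocytes Tgfb3 rose and Smad3 fell between 4 and 32 weeks. Of 8 genes that passed the filter in monocytes (all but Tgfb2), 1 was higher and 1 lower, where 14.9% of 12856 genes were called (7.06% higher and 7.83% lower at 32 weeks). Tgfb3 was at 0.573, 0 and 0 FPKM (FA) and 0.162, 0.770 and 0 FPKM (PM2.5) at 4 weeks, and at 17.9, 4.76 and 18.6 FPKM (FA) and 3.83, 6.31 and 0.357 FPKM (PM2.5) at 32 weeks. The FA libraries of the 2 times did not overlap and those of PM2.5 did, by the single library at 0.357 FPKM. The log2 fold change was 2.49 (SE 0.448, adjusted p = 0.00203). Within FA it was 3.47 (SE 0.633, adjusted p = 0.00545, where 7.21% of genes were called), and within PM2.5 it was 1.51 (adjusted p = 0.242, where 2.42% were called).

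Markers of interstitial macrophages, the macrophages of the lung tissue, moved beside Tgfb3. All 6 of that list were detected in both cell types. Their summed FPKM was 106 to 588 in CD45.2 monocytes of 4 weeks, 992 to 3801 in those of 32 weeks and 437 to 1294 in CD45.1 monocytes of 32 weeks. Platelet markers summed to 2.22 to 15.3 FPKM at 4 weeks and 73.5 to 290 FPKM at 32 weeks in the CD45.2 monocytes, and 9 monocyte markers to 3193 to 4321 and 1284 to 3458. Over all monocyte libraries Pf4 reached 288 FPKM, and the other genes of the platelet list at most 6.56 FPKM. The platelet sum is thus mostly Pf4 where it is high and does not stand for platelet markers as a group. The part of any of these marker lists in the Tgfb3 result was not tested.

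Smad3 in CD45.2 monocytes was at 34.8, 26.4 and 32.5 FPKM (FA) and 25.9, 28.4 and 41.2 FPKM (PM2.5) at 4 weeks, and at 18.5, 19.3 and 25.6 FPKM and 24.7, 18.8 and 21.8 FPKM at 32 weeks. Every library of 4 weeks stood above every one of 32 weeks, by 25.9 to 25.6 FPKM at the closest. Smad3 thus fell by 0.53 on the log2 scale (SE 0.137, adjusted p = 0.0178). The call was lost without PM2.5 replicate 1 of 32 weeks (adjusted p = 0.0503), and without replicate 2 of 4 weeks the value was -0.42 (adjusted p = 0.0821). Tgfbr2 had 0.55 (interval 0.14 to 0.97, adjusted p = 0.068), close to its value in TR-AΦ but not called, and Skil had -0.24 (interval -0.79 to 0.30).

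Of 43 other pathway genes tested in monocytes, 8 rose and 11 fell with time. Pmepa1, which encodes a membrane protein that sequesters receptor-regulated Smads, rose by 2.84 on the log2 scale, from a median of 2.11 FPKM to 21.0 FPKM, and Bmp2, a bone morphogenetic protein, rose by 1.81. Pparg fell by 1.80, from 30.1 to 9.17 FPKM. Of 9 known target genes 2 rose and 5 fell, with a median of -0.84 beside -0.05 over all genes.

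The difference between AΦ and monocytes changed with time for Tgfb2 and Tgfb3, by a test of the interaction in CD45.2 cells that called 7.88% of all genes. For Tgfb2 the log2 fold change went from 2.12 at 4 weeks to 1.28 at 32 weeks, a change of -0.83 (SE 0.213, adjusted p = 0.0136), and for Tgfb3 from -0.01 to -2.58, a change of -2.57 (SE 0.52, adjusted p = 0.00201). The Tgfb2 call depended on the scale, since a pseudocount of 0.1 in place of 1 gave -1.79 (adjusted p = 0.0568) and quantile normalization -0.54 (adjusted p = 0.172). For Skil the change was -0.71 (adjusted p = 0.155). Of the pathway lists, 7 genes had a positive and 4 a negative interaction, among them Pmepa1 (-2.73), Bmp2 (-2.32) and Pparg (2.10).

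PM2.5 against FA was compared in 6 populations, with 3 libraries a group, to ask whether exposure changed the pathway in AΦ or monocytes. None of the 7 genes tested in the AΦ or of the 8 tested in the monocytes was called in any of them. Over all genes, 0.0079% were called in TR-AΦ of 4 weeks, 0% in TR-AΦ of 32 weeks, 0.0158% in BM-AΦ, 0.00778% in CD45.2 monocytes of 4 weeks, and 0% in both monocyte populations of 32 weeks. The numbers of genes at an unadjusted p under 0.05 were 372, 396, 259, 272, 609 (CD45.1 monocytes) and 547 (CD45.2 monocytes). An exact permutation test of 3 against 3 cannot go below 0.1, so it could not reach the threshold.

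**Figure D5:**
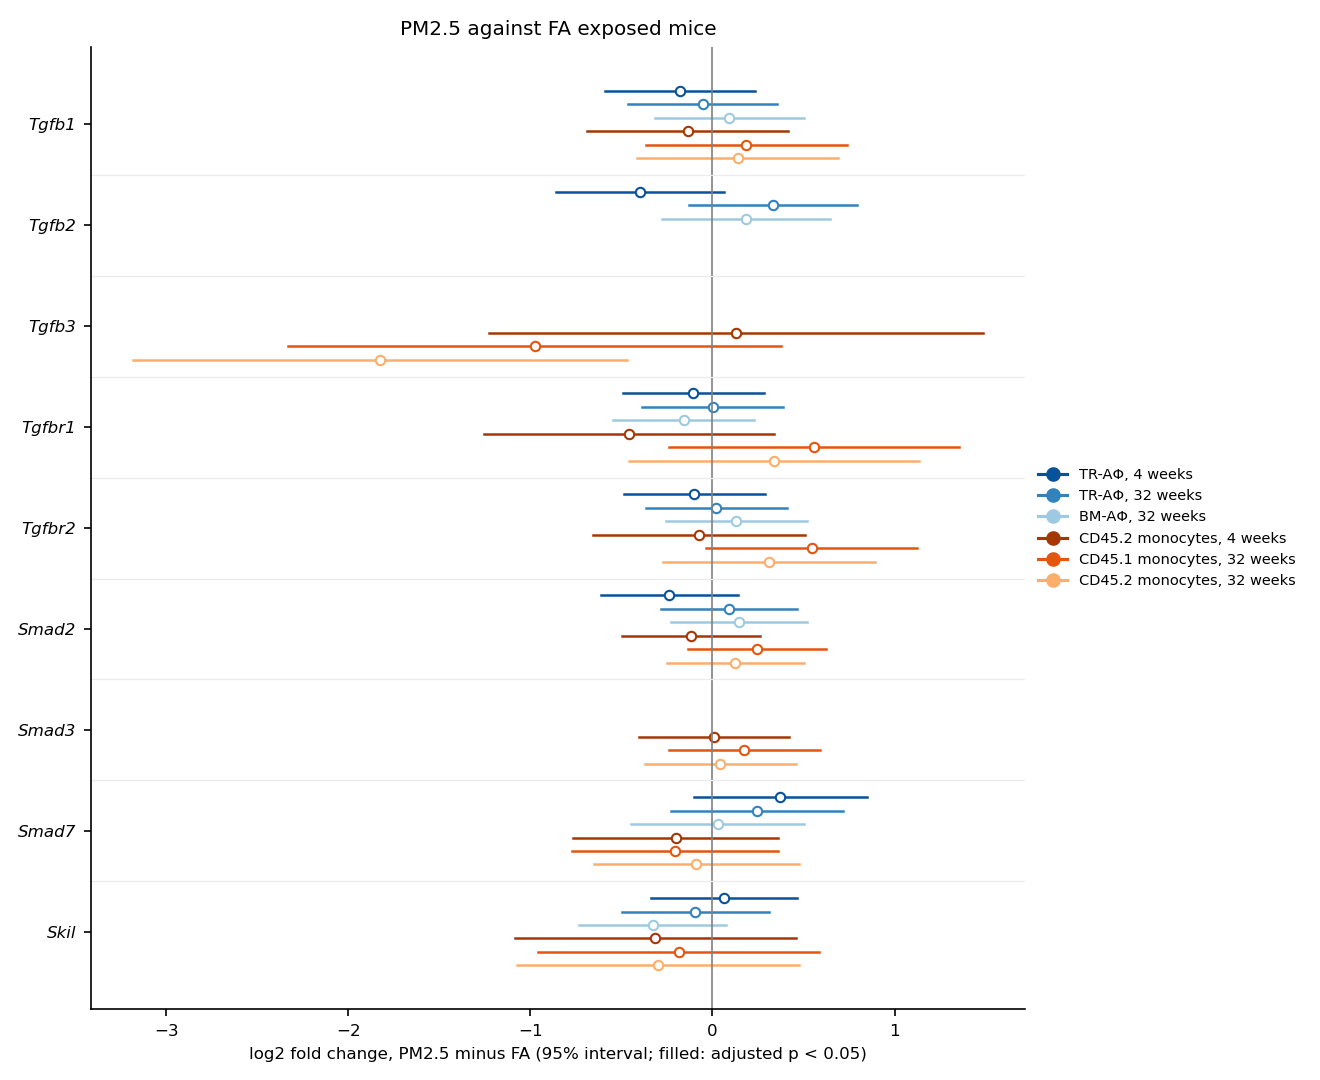
Log2 fold change of PM2.5 against FA on the log2(FPKM + 1) scale with 95% intervals for the genes tested, 3 libraries against 3, AΦ populations in blue and monocyte populations in red and orange; open points did not pass an adjusted p of 0.05. All points are open, and the interval that lies wholly to the left of 0 is that of Tgfb3 in CD45.2 monocytes of 32 weeks (-3.18 to -0.47).

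In 6 of the 54 comparisons of a gene and a population the FA and PM2.5 libraries did not overlap. With 3 libraries against 3, any such split has an exact permutation p of 0.1, so shuffled labels would give it in about that share of comparisons. The count of 6 in 54 is near this share and is not read as a result of exposure. The share over all genes is not given here. Tgfb2 was the gene with this in both directions. In TR-AΦ of 4 weeks it was at 4.19 to 4.80 FPKM in FA and 2.89 to 3.64 FPKM in PM2.5 (log2 fold change -0.40, interval -0.86 to 0.06, adjusted p = 1, exact permutation p = 0.1). In TR-AΦ of 32 weeks it was at 1.66 to 2.19 FPKM in FA and 2.24 to 3.08 FPKM in PM2.5 (0.33, interval -0.13 to 0.79), and in BM-AΦ the libraries overlapped. The interaction of exposure and time was 0.73 (adjusted p = 1), in a test that called 0.0079% of all genes.

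The other 4 were Smad7 in TR-AΦ of 4 weeks, at 4.60 to 4.93 FPKM in FA and 5.85 to 7.72 FPKM in PM2.5 (0.37), Smad3 in TR-AΦ of 32 weeks, at 0.0949 to 0.319 FPKM and 0 to 0.0793 FPKM, Skil in BM-AΦ, at 71.0 to 90.1 FPKM and 60.1 to 68.6 FPKM (-0.33), and Smad2 in CD45.1 monocytes, at 10.4 to 12.5 FPKM and 13.3 to 14.1 FPKM (0.24). The exact permutation p was 0.1 for each, and the adjusted p was 0.992 or above for the 3 tested by limma, which Smad3 in AΦ was not.

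The widest values were those of Tgfb3 in monocytes. In CD45.2 monocytes of 32 weeks the log2 fold change was -1.83 (unadjusted p = 0.0118, adjusted p = 1, exact permutation p = 0.2), and in CD45.1 monocytes it was -0.98 (exact permutation p = 0.3), from FA libraries at 2.94, 1.86 and 5.69 FPKM and PM2.5 libraries at 2.23, 1.88 and 0.0664 FPKM. The interstitial macrophage markers of the CD45.2 libraries were 3801, 2225 and 1262 in FA and 1584, 3131 and 992 in PM2.5, in the same replicate order. Both receptors in CD45.1 monocytes had log2 fold changes of 0.56 (Tgfbr1) and 0.55 (Tgfbr2), and Tgfbr1 had -0.46 in CD45.2 monocytes of 4 weeks. Tgfb1 had -0.18, -0.05 and 0.09 in the 3 AΦ populations, and each of these changed sign when 1 library was left out. None of the other pathway genes tested, 39 in AΦ and 43 in monocytes, was called by exposure.

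BM-AΦ and TR-AΦ of 32 weeks were compared over both exposures to ask whether origin marked the pathway. None of the 7 genes tested was called, where 0.316% of all genes were. Tgfbr2 had a log2 fold change of -0.27 in BM-AΦ (adjusted p = 0.67), Tgfb2 0.20 (interval -0.13 to 0.53), Tgfb1 -0.05 (interval -0.34 to 0.24), Tgfbr1 -0.13 (interval -0.40 to 0.15) and Skil 0.05 (interval -0.24 to 0.33). Smad3, untested by limma, was at 0.306 to 1.36 FPKM in BM-AΦ and 0 to 0.319 FPKM in TR-AΦ, a difference of 0.52 in mean log2(FPKM + 1) with an exact permutation p of 0.00649 (two-sided). Markers of other cells differed beside it: 5 dendritic cell markers summed to 6.54 to 24.4 FPKM in BM-AΦ and 0.184 to 3.32 FPKM in TR-AΦ, without overlap. The 6 interstitial macrophage markers had medians of 165 and 36.9 FPKM, and the 9 monocyte markers lay at 233 to 362 and 86.4 to 354 FPKM. Their part in the Smad3 difference was not tested. The interaction of exposure and origin called 0.0158% of all genes and none of the 7.

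Between CD45.1 and CD45.2 monocytes of 32 weeks none of 8 genes was called, where 0.669% of all genes were. Tgfb3 had -1.18 in CD45.1 monocytes (adjusted p = 0.359), Tgfbr2 -0.59 (adjusted p = 0.251) and Tgfbr1 -0.40. The interaction of cell type and origin called 1.08% of all genes and none of the 9, the widest being Tgfb3 at 1.39 (adjusted p = 0.272). Of the other pathway genes, Bmpr1a, a type I receptor for bone morphogenetic proteins, was lower in cells of CD45.1 origin in both cell types, by -1.64 in AΦ and -1.50 in monocytes, and Bmp2 was lower by -1.58 in CD45.1 monocytes.

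The genes whose levels ran most like those of the 9 were ranked by Pearson's r of log2(FPKM + 1), as a description, since libraries of a cell type share most of it. Over the 36 libraries Smad3 was followed most closely by Arhgef10l, Fyb and Padi2 (r of 0.99 for each), Tgfb2 by Chd5 (0.96), Smad7 by Foxo3 (0.96), Tgfbr2 by Fcgrt (0.95), Tgfb1 by Gm4604 (0.94), Tgfbr1 by Sirpa (0.93), Skil by Cflar (0.88), Tgfb3 by Rab7b (0.88) and Smad2 by Gm23212 (0.71). Over the 18 AΦ libraries alone Skil ran with Pcf11, Zfp131 and Wsb1 (0.96 for the third), Tgfbr2 with Abhd17c (0.95), Tgfb1 with Gnai2 (0.94), Tgfbr1 with Tm7sf3 (0.84) and Tgfb2 with Mterf1a (0.79).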

How the data were processed

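The deposited table holds FPKM values that the authors made with Cufflinks, after TrimGalore and STAR alignment to mm10, from SMART-Seq stranded libraries. The table's only per-sample columns are those of the 36 libraries, so depth is known in relative terms alone. Groups follow the labels.

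Values were taken as log2(FPKM + 1), and every gene averaging 1 FPKM or more in a fit was tested with limma 3.58.1 (R 4.3.3, variance trend, Benjamini-Hochberg over all genes within a comparison, threshold 0.05). AΦ (18 libraries, 12665 genes) and monocytes (18 libraries, 12856 genes) were fitted apart for exposure, time and origin, and all 36 together (13307 genes) for cell type. Single genes were also tested by exact permutation, two-sided, in Python 3.11.15. No 2 libraries held identical values. Per the study's methods the 3 libraries of a group came from separate mice. The study took 3 mice per exposure and time, and sorted AΦ and monocytes from their lungs. Libraries of different cell types or origins at the same exposure and time can therefore share mice, and the labels do not say which. The tests of cell type and origin, by limma and by permutation, took libraries as unpaired and do not account for shared mice. Itgam, with 2 rows in the table, was left out of the monocyte markers.

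The alternatives were a pseudocount of 0.1, no filter, quantile normalization, a replicate block, fits of only the groups compared, and each library left out. For cell type, for origin and for the interactions of cell type, a block of replicate number within exposure and time was also fitted. With it 7 (CD45.2, 4 weeks), 8 (CD45.1, 32 weeks) and 8 (CD45.2, 32 weeks) of the 9 genes were called between AΦ and monocytes, and 0 by origin. All 9 genes were named whatever their values, with up to 4 called genes of the pathway lists per comparison and the 3 genes of highest r. The 9 genes and the lists were chosen with earlier results of these data known. One gene of the pathway lists that this rule names is not reported here. The tests were checked on simulated data.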

Additional observations from a re-analysis of the deposited data

Results flagged for a closer look

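The difference between AΦ and monocytes was not the same at 4 and 32 weeks for 2 of the genes, by a test of the interaction itself in CD45.2 cells with limma. For Tgfb2 the change was -0.83 (adjusted p = 0.0136), with the AΦ at a median of 3.92 FPKM at 4 weeks and 2.22 FPKM at 32 weeks and the monocytes at 0.0663 and 0.348 FPKM. The Tgfb2 call was lost with a pseudocount of 0.1 (adjusted p = 0.0568) and after quantile normalization (-0.54, adjusted p = 0.172). For Tgfb3 the change was -2.57 (adjusted p = 0.00201), with AΦ medians of 0.131 and 0.10 FPKM and monocyte medians of 0.0812 and 5.54 FPKM.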

How the results depend on the processing

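Of 32 called values of the 9 genes, 23 passed the threshold under every alternative and left-out library, and 0 changed sign. The number of the 9 genes called moved by over 1.5 times in these cases. TR-AΦ with time went from 1 to 0 within FA (no filter, and only the groups compared), from 1 to 0 within PM2.5 (only the groups compared) and to 2 with the replicate block, and from 3 to 1 over both exposures (quantile normalization). The interaction of cell type and time went from 2 to 1 with a pseudocount of 0.1. Leaving out replicate 2 of 4 weeks in every population, chosen after seeing the data, gave 0 within PM2.5 in TR-AΦ and, over both exposures, 1 in CD45.2 monocytes in place of 2. Leaving out 1 library gave 0 to 1 genes within FA and within PM2.5 and 1 to 3 over both exposures in TR-AΦ, 1 to 3 in CD45.2 monocytes over both exposures, where only Tgfb3 stayed without replicate 1 of the 32-weeks PM2.5 group, and 2 to 3 for the interaction. The fold change of Tgfb1 with exposure changed sign without 1 library, to 0.013 (TR-AΦ, 4 weeks, without PM2.5 replicate 1, range -0.36 to 0.013), to 0.012 (TR-AΦ, 32 weeks, without PM2.5 replicate 1, range -0.17 to 0.012) and to -0.10 (BM-AΦ, without PM2.5 replicate 0, range -0.10 to 0.21). The cause was not tested in any of these. The labels do not say what a replicate number shares. Deviations from the group means correlated at -0.0415 to 0.155 in 42 same-numbered pairs of the same exposure and time (2 over 0.1) and at -0.0868 to 0.209 in 60 across exposures (6 over 0.1). Of differently numbered pairs, 1 of 84 and 1 of 120 were over 0.1. Medians were 0.0373 and 0.0122 for same-numbered pairs, against -0.021 and -0.00286. The numbers were not taken to pair the libraries, although replicate 2 held the highest Ptprc in 12 of 12 groups. An effect shared by a replicate number was not tested apart from the block. The block ended the Tgfb2 call with time in TR-AΦ (adjusted p = 0.0527), and with it the calls over all genes with time in TR-AΦ went from 99 to 211 (FA), 133 to 408 (PM2.5) and 748 to 1322 (both). With only the groups compared they were 15, 18 and 378. Libraries were 3 a group, and the absolute depth is unknown, so no limit of detection can be given for levels under 1 FPKM, as those of Tgfb3 and Smad3 in AΦ.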
